A study of Mus musculus with 294 samples.

Results

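The genes F9 (coagulation factor IX), F12 (coagulation factor XII), Serpina10 (the protein Z-dependent protease inhibitor) and Hrg (histidine-rich glycoprotein) encode plasma proteins of blood clotting that the liver makes. They are 4 of the 16643 genes named by the array's annotation. They were chosen by gene symbol, and the brightest probe set annotated to each was to stand for it; each of them turned out to have exactly 1 probe set. The animals were F2 offspring of an intercross of the mouse strains B6/J and A/J, both inbred. Total liver RNA of 294 animals was hybridised to Affymetrix arrays, 1 array per animal, and the animals form 1 group. The labels give no treatment, diet, age or sex, so the values describe differences among animals of 1 cross, and no groups are compared. The numbers in the sample titles open with 15 different sets of 3 digits, called label blocks here, of 17 to 23 animals each. They are lettered A to O by rising number. What these blocks are is not given in the sources used here.

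Clotting proteins are made mostly by hepatocytes and secreted into plasma. Factor XII starts the contact pathway when it meets a negatively charged surface and, with plasma prekallikrein and kininogen, activates factor XI. Factor IX, a vitamin K-dependent serine protease, is activated by factor XI or by factor VII bound to tissue factor, and in turn activates factor X with factor VIII as cofactor. Factor X with factor V converts prothrombin to thrombin, and thrombin cuts fibrinogen into fibrin. The protein Z-dependent protease inhibitor is a serpin that blocks activated factor X with protein Z as its cofactor, and also blocks activated factor XI. Histidine-rich glycoprotein binds heparin, plasminogen, fibrinogen and activated factor XII.

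The promoters of F9, F12 and Hrg are in the RefSeq promoter table of build GRCm38.p6 used here, and Serpina10 is not. The 150 bases before the annotated start of each gene are shown because the motifs of liver transcription factors they hold differ between these genes. Capitals mark exact matches to the motifs searched, on either strand.
F9 (chrX:59999314-59999463, plus strand): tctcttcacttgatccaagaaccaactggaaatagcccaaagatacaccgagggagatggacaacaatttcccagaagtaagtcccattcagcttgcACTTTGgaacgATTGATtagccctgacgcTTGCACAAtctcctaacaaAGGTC
F12 (chr13:55426805-55426954, minus strand): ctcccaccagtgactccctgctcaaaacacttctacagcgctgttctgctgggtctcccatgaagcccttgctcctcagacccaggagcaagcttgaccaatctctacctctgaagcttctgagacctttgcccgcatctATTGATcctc
Hrg (chr16:22950922-22951071, plus strand): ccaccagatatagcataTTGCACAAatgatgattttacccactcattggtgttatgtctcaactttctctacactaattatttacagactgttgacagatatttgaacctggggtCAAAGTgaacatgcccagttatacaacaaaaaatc

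Letters searched were GTTAAT for HNF1, CAAAGT for HNF4, AGGTCA for nuclear receptors, TGTTTNC for FOXA, TTGCNNAA for C/EBP, ATTGAT for ONECUT and TATAAA for the TATA box. Over 300 bases, from 250 before the start to 50 after it, the F9 promoter held an HNF4 match at -53, an ONECUT match at -42, a C/EBP match at -24 and a nuclear receptor match at -5, whose last base falls on the start itself. The F12 promoter held an ONECUT match at -10 and no other motif searched. The Hrg promoter held a C/EBP match at -133 and an HNF4 match at -35, and past the printed stretch a TATA box match at +1 and an ONECUT match at +14. None of the 3 windows held the HNF1 or FOXA letters. Among 32851 promoters of the same length in the table, 7.10% held the HNF1 letters, 14.4% the HNF4 letters, 16.3% the nuclear receptor letters, 20.5% the FOXA letters, 10.8% the C/EBP letters, 7.54% the ONECUT letters and 13.6% the TATA box. A match describes these letters only.

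Of 10 genes that define hepatocytes, 8 were measured, with mean log2 intensities from 11.78 for Apob to 14.55 for Alb, while the median probe set of an array lay between 4.40 and 4.53. Platelet and megakaryocyte markers had means from 2.82 to 6.40 and neutrophil markers from 3.34 to 5.60. An array's median correlation with the other arrays was 0.989 in the middle of the series and 0.974 at the lowest. There were 27 arrays that stood over 3 median absolute deviations below the rest, called arrays of low correlation here, and values without them are given where a result rests on them. The Y-linked genes Eif2s3y, Kdm5d and Uty split the animals into a cluster above and a cluster below a gap in their levels.

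F9 was level in most livers and low in a minority. Its log2 intensity was 9.24 in the lowest animal, 10.83 in the median animal and 11.30 in the highest, with a mean of 10.74 ± 0.30 (SD, n = 294). The 90th percentile exceeded the 10th by 1.60-fold, and 16% of all genes had a wider range by this measure. In bulk tissue, fewer cells of a type and less RNA per cell cannot be told apart. The distribution leaned toward low values (skewness -1.83), and a mixture of 2 normals with unequal SDs described it better than a single normal by 173.8 BIC units, where at least 10 was required. Its low component had a mean of 10.40, an SD of 0.38 and a weight of 27.8%, against a mean of 10.87 and an SD of 0.11 for the high component. A mixture of 2 normals was called for 8.25% of all genes, and the call for F9 was lost when block means were removed. The mixture then still lay 56.6 BIC units below the normal, but its means were closer than the required 1.5 SD.

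**Figure D1:**
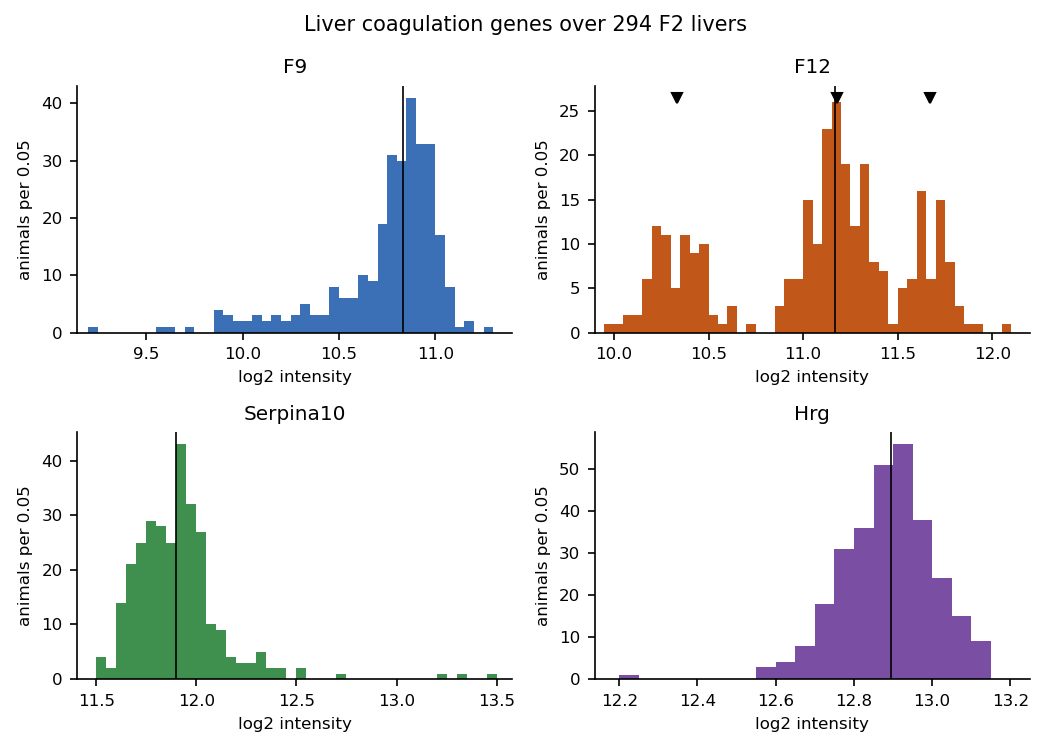
Distribution of the log2 intensity of F9, F12, Serpina10 and Hrg over 294 livers, as animals per bin of 0.05 log2 units; the black line is the median and the triangles under F12 are the 3 fitted class means of 10.33, 11.18 and 11.67. F9 has a tail to the left down to 9.24, F12 has 3 peaks, Serpina10 has a tail to the right up to 13.48, and Hrg is narrow.

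F9 differed among label blocks more than any of the other 16642 genes by the share of its variance that lay between blocks. That share was 43.01% (limma F test over all genes, Benjamini-Hochberg adjusted p = 6.19e-23), the gene next in order had 42.2%, and the median gene had 7.01%. The same test called 32.7% of all genes. F9 averaged 10.21 ± 0.41 in block F (SD, n = 23), where single animals ran from 9.24 to 10.86. Blocks J and B were the next lowest, with means of 10.50 ± 0.45 (SD, n = 20) and 10.53 ± 0.33 (SD, n = 17). Block A was highest at 10.97 ± 0.13 (SD, n = 19), a mean 1.69-fold above that of block F. The low blocks were also the ones with wide spread, and their animals overlapped those of every other block. Without block F the share between blocks was 28.4% (adjusted p = 7.58e-11). Of the 5 animals with the lowest F9, 3 were in block F, 1 in block J and 1 in block B, and all 5 had arrays of low correlation. Without all arrays of low correlation, the share of the variance of F9 between blocks was 36.4% (adjusted p = 2.15e-15).

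**Figure D2:**
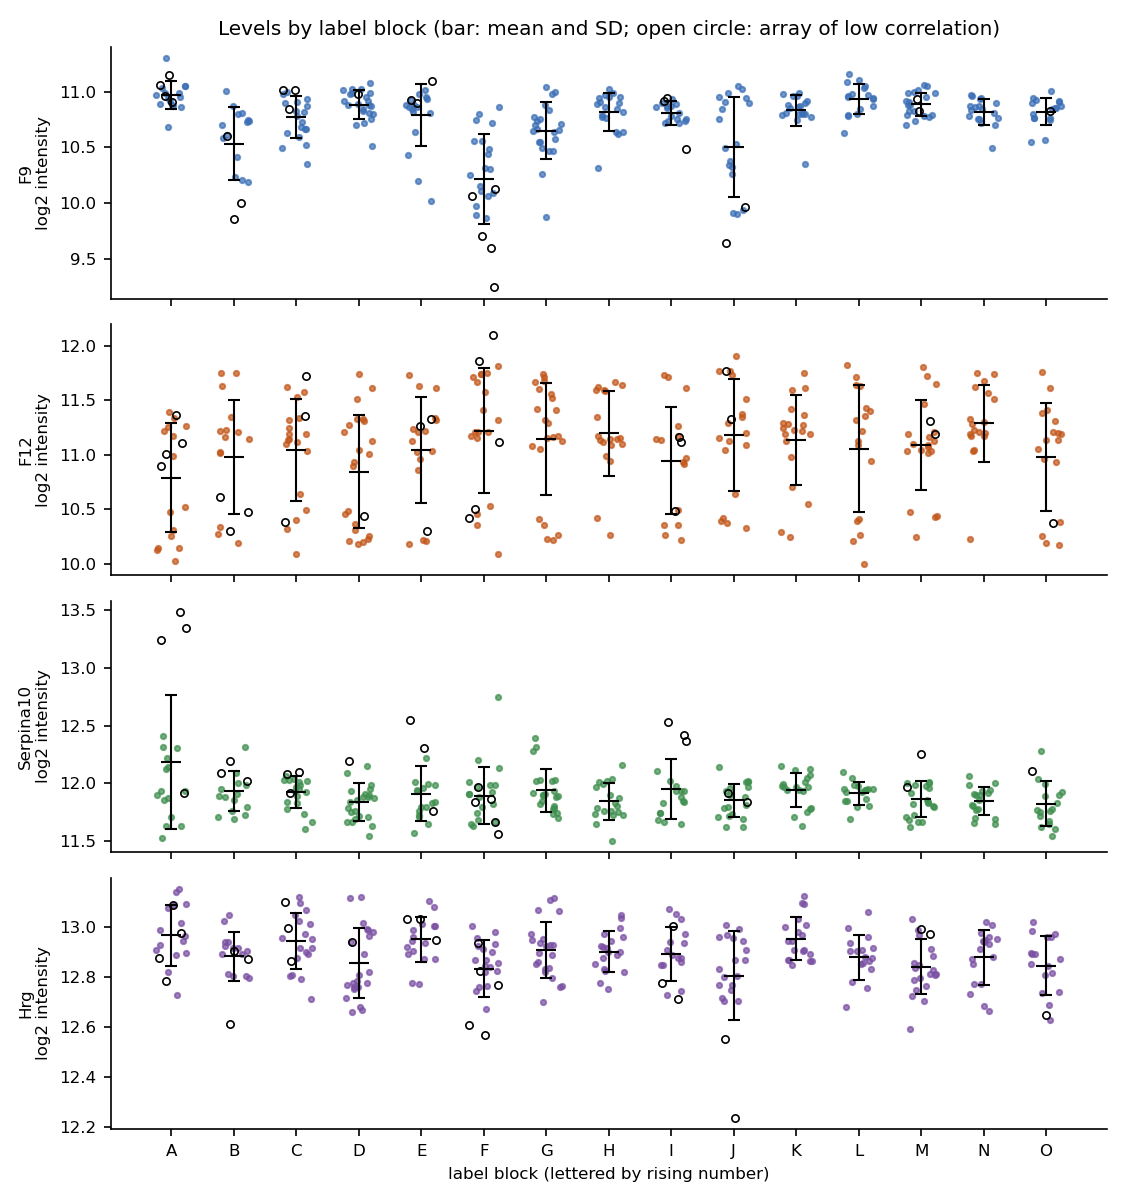
Log2 intensity of each of the 4 genes in every animal by label block, with the block mean and SD as a bar and arrays of low correlation as open circles. F9 is low and spread in blocks F, J and B, while the high Serpina10 animals of block A are open circles.

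The genes closest to F9 across animals came from many chromosomes and many functions. Highest were Zfp281, a zinc finger transcription factor, at r = 0.848, Thoc2, of the THO complex of mRNA export, at 0.848, Evi5 at 0.848, Itfg1 at 0.845 and Zfp638, an RNA-binding zinc finger protein, at 0.843. They were followed by Bnip3l, a mitophagy receptor, at 0.833, Synj2bp, of the outer mitochondrial membrane, at 0.831, and Vps35, a subunit of the retromer, at 0.830. These 8 relations had a largest adjusted p of 1.76e-72 in a limma regression of every gene on F9, were positive in at least 14 of 15 blocks, and lay between 0.744 and 0.807 with block means removed. The partners shared the block pattern, with 31.7% to 41.2% of their own variance between blocks. Spearman's rho was lower than r for each of them, from 0.575 for Vps35 to 0.702 for Zfp638, with a permutation p of 1e-05 for r and for rho, the smallest that 100000 permutations can give.

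Lowest against F9 were Mrpl12 and Mrps11, proteins of the mitochondrial ribosome, at r = -0.758 and -0.757, Hint1, a nucleotide hydrolase, at -0.748, Stra13 at -0.732, and Coq9, of coenzyme Q synthesis, at -0.725. Among the 50 genes with the most positive r the median gene span was 50300 bases, against 5183 bases among the 50 most negative and 21344 bases over all genes with a position. In all, 42.8% of 16642 genes passed the threshold of 0.05 with F9: 2406 were higher with it (14.5%) and 4714 were lower (28.3%). With block as a term in the fit, 31.8% of genes were called.

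F9 lies on the X chromosome, and 2 of its 50 closest genes were on X, which holds 3.53% of the genes with a position. Its nearest measured neighbours were Fgf13, with r = -0.01, and Mcf2, with r = -0.18 (limma adjusted p = 0.00548). Both neighbours were dim, with mean log2 intensities of 2.21 and 2.40. No gene next to F9 on the chromosome was among its closest genes.

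The 41 measured coagulation genes had mean log2 intensities from 2.62 for Plat to 13.73 for Fgb, and the median gene had 5.46. Of the 40 other than F9, 15 were higher with F9 and 8 were lower, against 14.5% and 28.3% of all genes. The lower count was 4 without the arrays of low correlation and 5 with block means removed. The median r was 0.0451, beside -0.0602 over all genes. F13b, the carrier subunit of the fibrin-crosslinking factor XIII, had the highest r at 0.636 (limma adjusted p = 7.58e-33), and the fibrinogen gamma chain Fgg followed at 0.587. Cpb2, which slows fibrinolysis, had r = 0.421, Fgb 0.405, the protein C cofactor Pros1 0.388, F5 0.377 and heparin cofactor II, Serpind1, 0.364. On the other side, Proc, the vitamin K-dependent zymogen protein C, had r = -0.544 (limma adjusted p = 5.43e-22), Vkorc1, which recycles vitamin K, -0.383, prothrombin F2 -0.335 and antithrombin Serpinc1 -0.251. Outside coagulation, Apob, the protein of very low density lipoprotein, had r = 0.705, the kinase Jak2 0.559, the urea cycle enzyme Otc 0.456 and the transcription factor Cebpa -0.50. Each was an extreme of its list. Of 8 hepatocyte-defining genes, 3 were higher with F9 and 3 lower, but 2 and 0 without the arrays of low correlation. Of 9 growth hormone signalling genes, 1 was higher and 2 were lower, but 1 and 0 without those arrays. Of 14 liver transcription factors, 3 were higher, led by Nr5a2 at 0.349, and 5 were lower. Without those arrays 2 were higher and 4 lower. Of 5 urea cycle genes, 3 were higher and 0 lower, but 1 was higher without the arrays of low correlation.

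F12 was the widest of the 4 genes and fell into 3 classes. Its log2 intensity was 9.9996 in the lowest animal, 11.17 in the median animal and 12.10 in the highest, with a mean of 11.07 ± 0.50 (SD, n = 294). The 90th percentile exceeded the 10th by 2.67-fold, a range that 2.46% of genes passed, and the SD was 2.70 times that of genes of like mean. Among the shapes planned, 2 normals with unequal SDs described it best, 123.8 BIC units below a single normal. A 1:2:1 mixture of 3 normals with free spacing, added after the histogram was seen, did better, at 188.2 units below the normal, and was called for 0.348% of all genes. In an F2 intercross, a locus with an allele from each parent strain gives 3 genotypes in the ratio 1:2:1; no animal's genotype was available here.

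With weights left free, the 3 F12 classes had means of 10.33, 11.18 and 11.67, a common SD of 0.13 and weights of 26.1%, 51.8% and 22.03%. Placed by highest probability, 77 animals were low (up to 10.71), 63 were high (11.46 to 12.10) and the rest lay in the middle (10.86 to 11.43). Only 1 low, 10 middle and 6 high animals had a probability under 90%. The step from low to middle was 1.80-fold and that from middle to high 1.41-fold, so that low and high differed by 2.52-fold. The classes were spread over the blocks, with 1 to 10 low, 8 to 13 middle and 0 to 9 high animals per block. Label block carried 7.497% of the variance of F12, near the median gene (adjusted p = 0.156), and block means ran from 10.79 in block A to 11.29 in block N.

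Over all animals, the genes closest to F12 lay mostly on its own chromosome 13. Of its 50 closest genes, 39 were on chromosome 13, which holds 3.78% of the genes with a position. The regression on F12 called 753 genes (4.52%), 3.07% higher and 1.45% lower. It called 116 of 628 genes on chromosome 13 (18.5%) against 636 of 15969 elsewhere (3.98%). Most of the called genes thus lay on other chromosomes. Counted in RefSeq gene order, 17 of the 100 measured genes within 50 places of F12 were called (17%). Within 100 places 49 of 200 were called (24.5%), and beyond 200 places 12.7% of the genes. The nearest neighbours were not called: Slc34a1 had r = -0.08, Grk6 -0.11, Rgs14 0.04 and Dbn1 -0.04.

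The highest r with F12 was that of the zinc finger gene Zfp874a, 94 places away, at 0.849, followed by Zfp708 at 0.731 and 86 places, and the hexokinase Hk3 at 0.629 and 11 places on the other side. Pxdc1 had r = 0.618, Habp4 0.586, the lysosomal sulfatase Arsb 0.522, Lyrm4, of iron-sulfur cluster assembly, 0.511 and Prxl2c 0.464. The lowest was the nucleotide sugar transporter Slc35d2, 70 places away, at -0.795. After it came Tpmt, thiopurine methyltransferase, at -0.703, Rhobtb3 at -0.616, glutaredoxin Glrx at -0.591 and the sulfatase Arsk at -0.568. Each of these 13 relations had the same sign in 15 of 15 blocks, and the largest adjusted p was 3.32e-14. Because F12 falls into classes, these values describe mainly the order of the classes. Pooled within the classes, r was 0.037 for Zfp874a, 0.148 for Zfp708, -0.210 for Slc35d2 and -0.156 for Tpmt. Genes on other chromosomes, singled out after their values were seen, were Sfi1 on chromosome 11 at -0.562, Hoxa5 on chromosome 6 at -0.537 and 5830444B04Rik on chromosome 4 at 0.463. Within the low, middle and high class these were 0.384, 0.298 and 0.0825 for Sfi1, opposite in sign to the value over all animals, -0.200, -0.115 and -0.188 for Hoxa5, and -0.107, 0.109 and -0.0169 for 5830444B04Rik. Sfi1 and 5830444B04Rik were dim, at mean log2 intensities of 4.57 and 2.89.

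**Figure D3:**
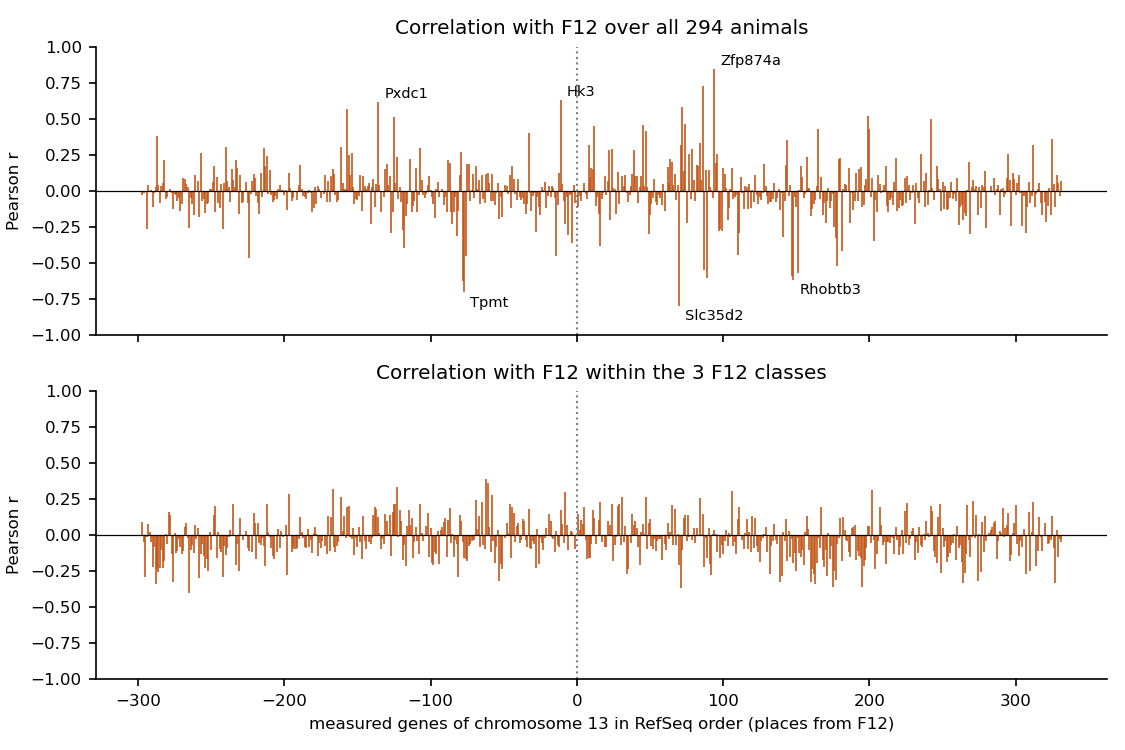
Correlation with F12 of the 628 other measured genes of chromosome 13 against their place from F12 in RefSeq gene order (distance counted in genes), over all 294 animals (top) and pooled within the 3 F12 classes (bottom). The values of up to 0.849 and down to -0.795 in the top panel shrink in the bottom panel, where the farthest from 0 is Lgals8 at -0.403.

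With the class of each animal as a term in the fit, an analysis added after the data were seen, F12 showed other partners. The classes carried 93.2% of the variance of F12, leaving an SD of 0.13. The regression then called 2789 genes higher (16.8%) and 1922 lower (11.5%) with F12. None of the 50 closest genes was on chromosome 13, where 28.2% of genes were called, beside 28.3% of all genes. The highest r within classes was that of Itih1, an inter-alpha-trypsin inhibitor heavy chain, at 0.631 (limma adjusted p = 1.66e-29), and the next was prothrombin F2 at 0.561 (limma adjusted p = 3.2e-19). Then came transferrin receptor Tfr2 at 0.559, Gne, of sialic acid synthesis, at 0.548, Vkorc1 at 0.539, fetuin A, Ahsg, at 0.538, F10 at 0.537 and complement factor B, Cfb, at 0.537. All 8 were positive in 15 of 15 blocks, with a permutation p of 1e-05 for shuffles within classes, the smallest that 100000 permutations can give. For F2, r was 0.599 in the low, 0.529 in the middle and 0.611 in the high class. Removing the Y-linked mean left r at 0.477 for F2, and it was 0.499 in the animals above that gap and 0.474 in those below.

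Coagulation genes made up 5 of the 15 highest-ranking of 16642 genes within the F12 classes: F2, Vkorc1, F10, the kininogen Kng1 at 0.520 and Proc at 0.513. There were 40 coagulation genes among the 16642. F2, Vkorc1 and F10 were among the 8 highest. The cut at 15 falls on Proc, and the next coagulation gene, Habp2, was at rank 27. Of the 40 other coagulation genes measured, 20 were higher with F12 within classes and 2 were lower, against 16.8% and 11.5% of all genes, and their median r was 0.139 beside -0.00353 over all genes. Further members of the list with a positive call included Habp2 at 0.460, the plasmin inhibitor Serpinf2 at 0.428, plasminogen Plg at 0.408, F7 at 0.398, C1 inhibitor Serping1 at 0.392, which also blocks activated factor XII, antithrombin Serpinc1 at 0.389 and F5 at 0.347. Within classes, 14 of the 40 were called among the animals above the Y-linked gap, beside 9.63% of all genes higher and 6.09% lower, and 15 among those below it, beside 5.44% and 2.79%. The calls in the other direction were Vkorc1l1 at -0.237 (limma adjusted p = 0.000401) and F9 at -0.165 (limma adjusted p = 0.0199). Vkorc1l1 was at 0.00126 with the Y-linked mean removed, at -0.0938 above the gap and at 0.101 below it. F9 was at -0.0395 with block means removed and at -0.0811 without the arrays of low correlation. F13b at -0.0483 and Fgg at 0.0711, both high with F9, were not called. Without the class term, 16 of the 40 were higher with F12 and 0 lower (limma adjusted p under the threshold, beside 3.07% and 1.45% of all genes), and 13 of those 16 were called within classes too. The rest, Tfpi, Vwf and Plau, were dimmer than the median gene, at mean log2 intensities of 5.33, 5.31 and 3.03. With the Y-linked mean removed, 9 of the 40 were called over all animals. The highest over all animals was F10 at 0.319.

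Lowest against F12 within classes were Ermp1, an endoplasmic reticulum peptidase, at r = -0.485, the histamine methyltransferase Hnmt at -0.478, Aldh1a7 at -0.470, Spryd7 at -0.470 and Pdha1, of pyruvate dehydrogenase, at -0.465. Among the other lists, 11 of 14 cholesterol synthesis genes were lower with F12 within classes (median r -0.216), and 9 of 15 complement genes were higher. All 11 Kupffer cell markers were higher (0.164 for Cd68 to 0.337 for Clec4f), with mean log2 intensities from 5.57 to 10.52. The 3 Y-linked genes were all lower (-0.336 for Kdm5d to -0.357 for Uty). Of 7 liver genes listed as male-biased, 4 were lower and 0 higher (median r -0.149). Of 7 listed as female-biased, 4 were higher and 0 lower (median r 0.173). With the Y-linked mean removed, r within classes was 0.439 for F10, 0.230 for F7 and 0.0675 for the vitamin K-dependent carboxylase Ggcx, from 0.537, 0.398 and 0.226. In that fit 19 of the 40 coagulation genes were called in place of 22. Whether this change differs from that over all genes was not tested. The part of Kupffer cell number in the relation of F12 to coagulation genes was not tested.

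**Figure D4:**
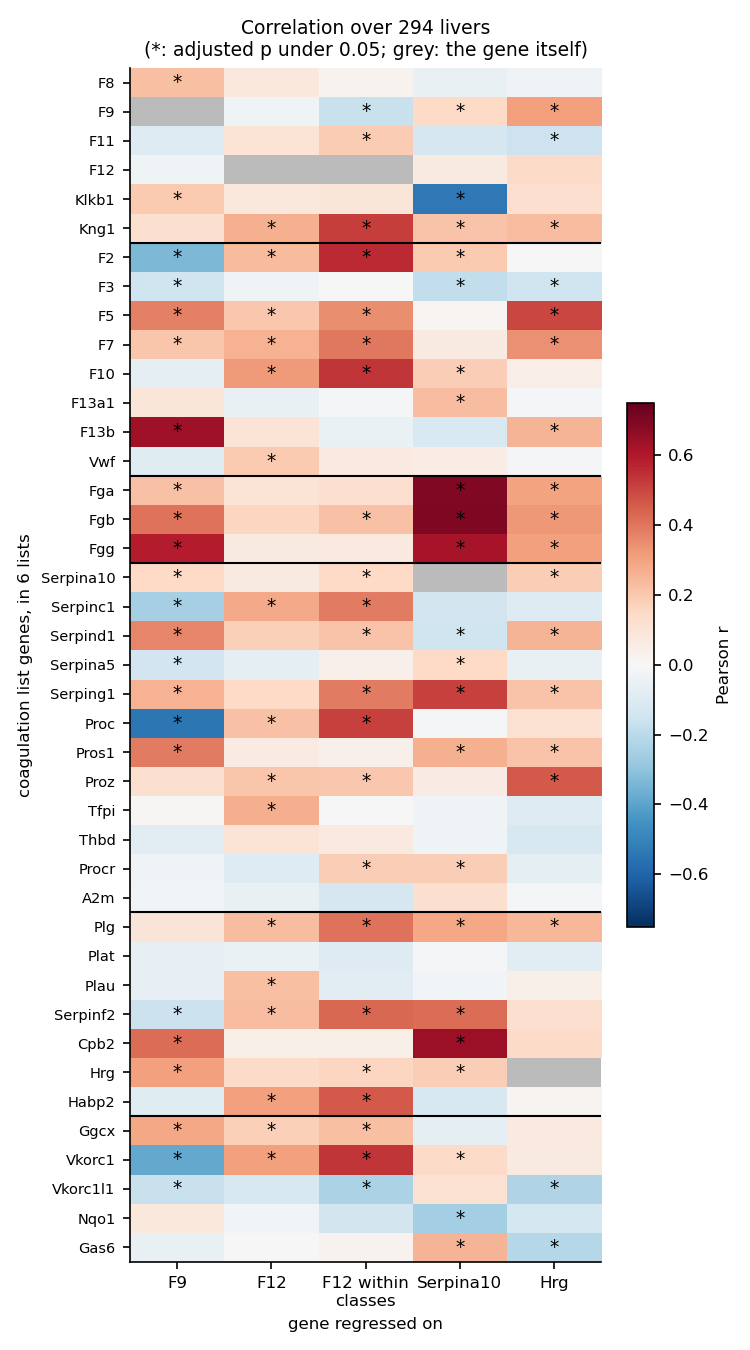
Correlation of 41 measured coagulation genes (rows, by role) with F9, with F12 over all animals, with F12 within its classes, with Serpina10 and with Hrg (columns); colour gives Pearson's r, an asterisk marks an adjusted p under 0.05 and grey marks a gene with itself. The column of F12 within classes is high for F2 (0.561), F10 (0.537), Vkorc1 (0.539) and Kng1 (0.520), that of Serpina10 for the fibrinogen chains (0.618 to 0.703), and that of F9 for F13b (0.636).

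Serpina10 was narrow in most livers with a few far higher. Its log2 intensity was 11.51 in the lowest animal, 11.90 in the median animal and 13.48 in the highest, with a mean of 11.91 ± 0.24 (SD, n = 294). The 90th percentile exceeded the 10th by 1.37-fold, and 54.4% of genes had a wider range, while the skewness of 2.67 came with the few high animals. The 3 highest animals, at 13.48, 13.35 and 13.24, were all in block A and all had arrays of low correlation. Their Serpina3n was 13.25, 13.13 and 12.39, and their serum amyloid Saa2, named after its values were seen, was 13.99, 13.81 and 13.68. The fourth animal, at 12.74 in block F, had an array that was not of low correlation and Saa2 at 13.81. Over all arrays, r between Serpina10 and an array's median correlation with the others was -0.556. A mixture of 2 normals was called, 110.5 BIC units below the normal, with 6.11% of the weight at a mean of 12.44 and the rest at 11.88. That call ended without the arrays of low correlation, at 9.29 units.

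Label block carried 12.1% of the variance of Serpina10 (limma F test, adjusted p = 0.00371). Block A was highest with a mean of 12.18 ± 0.58 (SD, n = 19) and block O lowest with 11.83 ± 0.19 (SD, n = 18), a 1.28-fold difference within which the animals overlapped. The call rested on block A, without which the share was 5.33% (adjusted p = 0.515).

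Highest with Serpina10 were the serpin Serpina3n at r = 0.804, the leucine-rich glycoprotein Lrg1 at 0.741, Fndc3b at 0.718, the magnesium transporter Slc41a2 at 0.709 and the co-chaperone Dnajc12 at 0.704. The fibrinogen chains Fgb at 0.703 and Fga at 0.692 and the inter-alpha-trypsin inhibitor chain Itih3 at 0.679 completed the 8. All were positive in at least 14 of 15 blocks, with a largest limma adjusted p of 1.24e-37. Block A carried part of several: without it, r was 0.641 for Serpina3n, 0.489 for Dnajc12 and 0.626 for Fgb. For Itih3, r stayed between 0.666 and 0.6875 whichever label block was left out, and the lowest value was without block F. Lowest were the uridine phosphorylase Upp2 at -0.683, Hibadh, of valine breakdown, at -0.665, the methyltransferase Inmt at -0.657, the carboxylesterase Ces1f at -0.636 and Cisd1, of the outer mitochondrial membrane, at -0.635. Without block A these were -0.384, -0.555, -0.424, -0.370 and -0.364. The regression called 5363 genes (32.2%), of which 2848 were higher with Serpina10 (17.1%) and 2515 lower (15.1%).

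In the acute phase response the liver changes its plasma proteins in inflammation. All 13 measured acute phase genes were higher with Serpina10, with a median r of 0.580 and a range from 0.334 for Apcs, serum amyloid P, to 0.679 for Itih3. All 15 chaperones and folding enzymes of the endoplasmic reticulum were higher too, with a median of 0.445, from 0.153 for Canx to 0.580 for Pdia4. The first count stayed at 13 without the arrays of low correlation, and the second was 11. All 6 measured neutrophil markers were higher with Serpina10, led by S100a9 at 0.524, and 2 of them without those arrays. The part of neutrophils in the relation was not tested. Of 13 clock genes, 9 were lower with Serpina10 (5 without those arrays), with Tef at -0.454. Another 2 were higher, with Arntl at 0.251 (0 without those arrays). Over all arrays, 15.1% of all genes were lower and 17.1% higher. Of the 8 hepatocyte-defining genes, 4 were lower, with Apoc3 at -0.405. Of 8 hormone receptors, 2 were higher with Serpina10 and 3 lower, with a median r of -0.0424. The highest was the signalling receptor chain Il6st, through which interleukin 6 acts, at 0.389. The lowest was the growth hormone receptor Ghr at -0.421.

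**Figure D5:**
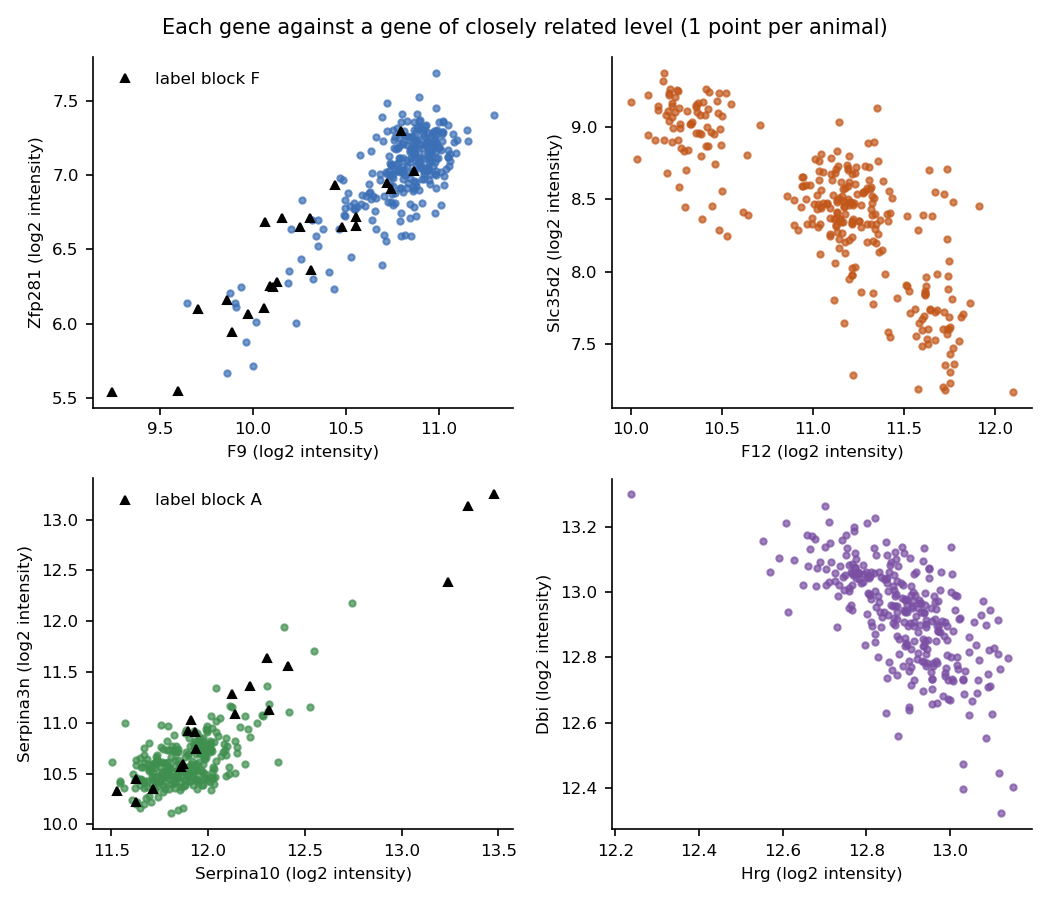
Log2 intensity of each gene against a gene of high or low correlation in every animal: F9 against Zfp281 (r = 0.848, block F as triangles), F12 against Slc35d2 (r = -0.795), Serpina10 against Serpina3n (r = 0.804, block A as triangles) and Hrg against Dbi (r = -0.662). The F12 panel falls into clusters, and the upper right of the Serpina10 panel is held by animals of block A.

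Of the 40 other coagulation genes, 18 were higher with Serpina10 and 4 lower, against 17.1% and 15.1% of all genes, with a median r of 0.0925 beside -0.00965 over all genes. The lower count was 1 without the arrays of low correlation and 2 with block means removed. Besides the fibrinogen chains Fgb, Fga and Fgg (0.618), these included Cpb2 at 0.641, Serping1 at 0.513, Serpinf2 at 0.417 and Plg at 0.291. Klkb1, plasma prekallikrein, had r = -0.537 (limma adjusted p = 2.35e-21), but -0.141 (limma adjusted p = 0.0872) without the arrays of low correlation. Proz, protein Z, the cofactor of the inhibitor that Serpina10 encodes, had r = 0.0588 (limma adjusted p = 0.489) over all arrays and 0.333 (limma adjusted p = 1.32e-06) without the arrays of low correlation. Serpind1 changed sign, from -0.152 (limma adjusted p = 0.0312) to 0.231 (limma adjusted p = 0.00175) without those arrays. On chromosome 12, the serpin gene Serpina11, 2 measured genes away, had r = 0.472 (limma adjusted p = 4.43e-16), whereas Serpina1f between them had -0.00 and Ppp4r4 on the other side 0.03. Serpina1f was dim, at a mean of 2.55. Of the 50 closest genes, 1 was on chromosome 12.

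Hrg was the steadiest of the 4 genes. Its log2 intensity was 12.24 in the lowest animal, 12.90 in the median animal and 13.15 in the highest, with a mean of 12.89 ± 0.12 (SD, n = 294). The 90th percentile exceeded the 10th by 1.22-fold, and 96.7% of genes had a wider range; its SD was 0.937 times that of genes of like mean. No mixture was called (5.96 BIC units). Label block carried 15.3% of its variance (limma F test, adjusted p = 0.000193), with means from 12.80 ± 0.18 in block J (SD, n = 20) to 12.96 ± 0.12 in block A (SD, n = 19), a 1.12-fold difference. The 3 lowest Hrg animals had arrays of low correlation, and their F9 was low as well, at 9.97, 9.64 and 9.24.

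Lowest against Hrg across animals was Dbi, the acyl-CoA-binding protein, at r = -0.662. Pgd, of the pentose phosphate pathway, had -0.627, fatty acid synthase Fasn -0.608, the citrate carrier Slc25a1 -0.600 and Pcyt2, of phosphatidylethanolamine synthesis, -0.599. All 5 were negative in 15 of 15 blocks, and they lay between -0.671 and -0.567 with block means removed. All 14 measured cholesterol synthesis genes were lower with Hrg, from -0.553 for Pmvk to -0.263 for Srebf2, with a median r of -0.426 beside -0.0128 over all genes. The regression called 3644 genes (21.9%), 1705 higher with Hrg (10.2%) and 1939 lower (11.7%).

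Highest with Hrg were the kinase Srpk2, which acts on splicing factors, at r = 0.599, Lin7a at 0.550, fetuin B, Fetub, at 0.530, the oxysterol-binding protein relative Osbpl9 at 0.519 and the polymeric immunoglobulin receptor Pigr at 0.518. Clusterin, Clu, had 0.515, F5 0.502 and the splicing protein Mfap1a 0.480. Each was positive in at least 13 of 15 blocks. Hrg lies on chromosome 16 in a run of genes of the cystatin superfamily, and all its 4 nearest measured neighbours were higher with it: Fetub on one side, Ahsg beyond it at 0.202 (limma adjusted p = 0.00473), Kng1 on the other side at 0.232 (limma adjusted p = 0.00071) and Eif4a2 at 0.246 (limma adjusted p = 0.000257). Of its 50 closest genes, 3 were on chromosome 16, which holds 3.28% of genes with a position. The insulin receptor Insr, the highest of 8 hormone receptors, had r = 0.459, and 2 of the 8 were higher with Hrg and 0 lower. Of 14 liver transcription factors, 9 were higher with Hrg and 1 was lower, against 10.2% and 11.7% of all genes. The highest was the bile acid receptor Nr1h4 at 0.248 and the lowest Cebpa at -0.245. Without the arrays of low correlation 4 of the 14 were higher, and with block means removed 5.

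Of the 40 other coagulation genes, 14 were higher with Hrg and 4 lower, against 10.2% and 11.7% of all genes, with a median r of 0.0703 beside -0.0128 over all genes. F5 was followed by Proz at 0.461, F7 at 0.345, Fgb at 0.325, Fgg at 0.308, F9 at 0.308 and Fga at 0.301. Plg, whose protein histidine-rich glycoprotein binds, had r = 0.248 (limma adjusted p = 0.000389). The 4 lower genes were Vkorc1l1 at -0.223, the vitamin K-dependent ligand Gas6 at -0.215, F11 at -0.157 and tissue factor F3 at -0.151. Without the arrays of low correlation, Vkorc1l1 alone of these 4 was called, at -0.182 (limma adjusted p = 0.0239). With block means removed, Vkorc1l1 and Gas6 were called, and F11 was at -0.0242 and F3 at -0.0789.

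Between the 4 genes themselves, relations were weak. For each of the 6 pairs, r was tested by permutation with 100000 resamples, two-sided, and the adjusted p is the larger of those in the limma regressions on either gene over all genes. F9 and Hrg had the highest value, r = 0.308 and rho = 0.177 (permutation p = 1e-05 for r and 0.0025 for rho, adjusted p = 1.81e-06). Without the 2 animals farthest from the F9 median r was 0.279, and it was positive in 11 of 15 blocks and 0.276 with block means removed. Without the arrays of low correlation it was 0.154 (adjusted p = 0.0695). Without those arrays the regression on Hrg no longer called F9, while the regression on F9 still called Hrg (limma adjusted p = 0.0416).

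Serpina10 and Hrg had r = 0.182 and rho = 0.242 (permutation p = 0.00241 and 7e-05, adjusted p = 0.0109), and r = 0.240 without the 2 animals farthest from the Serpina10 median. With block means removed r was 0.109 (adjusted p = 0.223), and without the arrays of low correlation it was 0.309. F9 and Serpina10 had r = 0.149 and rho = 0.110 (permutation p = 0.0127 and 0.0604, adjusted p = 0.0344), and 0.0852 without the arrays of low correlation (adjusted p = 0.363). It was 0.145 without the 2 animals farthest from the F9 median.

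The pairs with F12 are given within its 3 classes. F12 and F9 had r = -0.308 in the low, 0.0183 in the middle and -0.478 in the high class, and -0.165 pooled within classes (permutation p = 0.00537). With block means removed it was -0.0395 within classes, and over all animals r was -0.0299. F12 and Serpina10 had 0.247, 0.0802 and 0.399, and 0.151 pooled (permutation p = 0.0101). Pooled within classes it was 0.322 without the arrays of low correlation and ran from 0.124 to 0.321 with a label block left out, and the rank correlation was 0.309. F12 and Hrg had 0.0851, 0.248 and 0.0616, and 0.162 pooled (permutation p = 0.00539). Whether the classes differ in these values was not tested.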

How the data were processed

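The deposited values were linear intensities of 32640 probe sets on 294 arrays, made by the authors with RMA, per the submitters' processing notes; its version and the genome build of the probe sets are not given in the sources used here. No value was at or below 0, so log2 was taken here with no pseudocount and no filter. Annotation gave 1 gene symbol to 25508 probe sets and none to 7132. Relations were tested with limma 3.58.1 in R 4.3.3 (lmFit and eBayes, every gene regressed on the log2 level of each of the 4 genes, Benjamini-Hochberg over all genes, threshold 0.05) and, for single relations, with 100000 permutations. Shapes were compared by BIC in Python 3.11.15 with scipy 1.17.1, and a mixture call also needed means at least 1.5 SD apart. Array intensities carry no counts, and the p-values measure the spread between animals. The regressions and the planned shape calls were tested on simulated data, with independent noise for each gene. The 1:2:1 call with free spacing and the 3-class fit of F12 were not tested in this way.

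The 4 genes and the 29 gene lists (41 measured coagulation genes among them) were chosen with earlier results of these data known. Genes were named by rule: for each of the 4 genes, the 8 of highest and 5 of lowest r among genes brighter than the median gene, any gene of the coagulation lists, the highest and lowest of every other list, the nearest neighbours, and the hepatocyte-defining genes. The same rule within the F12 classes was added later. Alternatives were quantile normalization, leaving out 27 arrays of low correlation or each label block in turn, removing block means, the Y-linked mean or the first principal component (20.0% of variance), keeping only bright genes, Spearman's rho, and fits on either side of the Y-linked gap. Promoters are RefSeq's, of build GRCm38.p6.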

Additional observations from a re-analysis of the deposited data

How the results depend on the processing

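The 52 genes named as closest to F9, F12, Serpina10 and Hrg over all animals kept their direction and their call under quantile normalization, without the arrays of low correlation, and with block means, the Y-linked mean or the first principal component removed. Of 148 relations of coagulation genes, 16 lost and 10 gained a call without the arrays of low correlation, and 1 reversed: Serpind1 with Serpina10 had r = 0.231 there, from -0.152. Under the other 4 alternatives none reversed. The causes of the changes below were not tested. With block means removed, the mixture call ended for F9 (56.6 BIC units, with means under 1.5 SD apart) and for Serpina10 (70.6, where a Student t was the best shape). Without the arrays of low correlation, the Serpina10 mixture call ended (9.29 units), its block share was 7.53% (adjusted p = 0.277), and the genes lower with Serpina10 came to 8.50% of all genes, those lower with Hrg to 6.84% and those lower with F12 to 2.62%. In the same setting r was 0.0852 for F9 with Serpina10, 0.154 for F9 with Hrg, and 0.184 for F12 with Hrg, which gained a call (adjusted p = 0.0428). With block means removed, r was 0.195 for F12 with Hrg (adjusted p = 0.0342) and 0.109 for Serpina10 with Hrg (adjusted p = 0.223). With the Y-linked mean removed, 1.39% of genes were higher and 0.703% lower with F12, and 9 coagulation genes were called. Above and below the Y-linked gap, with fewer animals in each fit, r of F9 with Serpina10 was 0.138 and 0.181 (adjusted p = 0.214 and 0.13), and that of Serpina10 with Hrg 0.199 and 0.174 (adjusted p = 0.0937 and 0.164). In the same split, within F12 classes, 9.63% and 5.44% of genes were higher with F12 and 6.09% and 2.79% lower, and 14 and 15 coagulation genes were called.

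Leaving out each label block in turn gave block shares of 28.4% to 47.4% for F9, 5.87% to 8.11% for F12, 5.33% to 13.2% for Serpina10, where the lowest was without block A, and 13.67% to 16.4% for Hrg. For F9 with Serpina10, r ran from 0.0883 to 0.168, and the call ended without block A, C or G. For F12 with Hrg it ran from 0.104 to 0.1997, with a call without block J. The genes higher with F12 ran from 1.80% of all genes (without block L) to 3.91%, with 1.90% without block A, and those lower from 0.841% (without block A) to 1.88%, with 0.949% without block L. The genes lower with Serpina10 ran from 9.88% (without block A) to 15.3%. No next brightest probe set could be tried, because each gene has 1. No paired analysis was possible because the animals form 1 group. With arrays, the number of animals and the brightness of each probe set limit the precision.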
